A study of Mus musculus with 54 samples.

Results

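Zfp36, Zfp36l1, Zfp36l2 and Zc3h12a encode proteins that shorten the life of other mRNAs. They were taken as the rows of the count table with those names, 4 of 24421 genes, and all 4 passed the filter on low counts that left 14320 genes for testing. The members were measured in hematopoietic stem cells (HSC), the bone marrow cells that renew the blood, sorted from Fgd5 reporter mice on a C57BL/6 background, whose HSC carry the fluorescent protein ZsGreen, by SLAM-LSK surface markers and that fluorescence. The question behind the series is what HSC transcribe after radiation when the mice first receive dmPGE2, which is prostaglandin E2 modified so that it is broken down slowly. The injected dose is uncertain, since the labels give it as 35 µg but also as 3.5 µL of stock at 0.1 mg/ml, which amounts to 0.35 µg.

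All mice carried the reporter and all received 1 injection under the skin, of dmPGE2 or of ethanol vehicle, 30 min before irradiation or its omission. The irradiated mice received 8.53 Gy, described as the 50% lethal dose. At 1 h there were 8 libraries of irradiated dmPGE2 mice, 8 of irradiated vehicle mice and 7 of non-irradiated dmPGE2 mice. At 24 h there were 8 libraries of irradiated dmPGE2 mice and 8 of irradiated vehicle mice. The 15 libraries of non-irradiated vehicle mice (8 labelled 1 h and 7 labelled 24 h) were pooled as the untreated baseline, because their column names do not tell the times apart. Libraries are numbered within each group in table order, and total counts ran from 15049364 to 26217041.

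Proteins of the ZFP36 family carry paired zinc fingers that bind AU-rich elements in the tails of short-lived mRNAs and recruit the CCR4-NOT complex, which removes the poly(A) tail. Zfp36 encodes tristetraprolin (TTP), the family member that limits tumour necrosis factor in inflammation and is itself an immediate early gene. Zfp36l1 and Zfp36l2 encode its close relatives, and mice lacking Zfp36l2 fail to maintain their blood stem cells. Zc3h12a encodes regnase-1, an endonuclease that cuts stem-loops in the mRNAs of cytokines and, in mouse HSC, restrains the mRNAs of the stem cell factors Gata2 and Tal1.

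In mm10, Zfp36 lies on the minus strand at chr7:28376784-28379228 (2 exons, 1765 exonic bases) and Zfp36l1 on the minus strand at chr12:80107760-80113013 (2 exons, 2984 bases). Zfp36l2 lies on the minus strand at chr17:84183928-84187947 (2 exons, 3533 bases) and Zc3h12a on the minus strand at chr4:125118414-125127881 (6 exons, 2805 bases). The 3 ZFP36 genes each have 1 copy of the nonamer TTATTTATT, the sequence that TTP prefers, in the longest 3′ UTR of GENCODE M21, and Zc3h12a has none in its 856 bases. Of the genes whose 3′ UTR has a length from 80% to 125% of the member's, 4.18% hold this nonamer for Zfp36 (774 bases), 10.2% for Zfp36l1 (1835 bases), 10.1% for Zfp36l2 (1822 bases) and 4.74% for Zc3h12a. The 3 sites, at chr7:28376951-28376979, chr12:80108167-80108195 and chr17:84184914-84184942 of GRCm38, are shown with 10 bases on each side and the nonamer in capitals, since members of the family can carry the element that the family binds.
Zfp36: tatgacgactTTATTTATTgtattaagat
Zfp36l1: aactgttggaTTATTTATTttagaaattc
Zfp36l2: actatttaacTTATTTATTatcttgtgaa

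Promoters of Zfp36, Zfp36l1 and Zc3h12a were matched in RefSeq (build GRCm38.p6), and Zfp36l2 was not matched. Windows from 250 bases before to 50 after the start were searched on both strands. The motifs were the cAMP response element TGACGTCA and its shorter form TGACG, AP-1 (TGANTCA), EGR (GCGTGGGCG or GCGGGGGCG), the CArG box bound by serum response factor and the NF-kB site. The full cAMP response element and the NF-kB site had no match in the 3 windows. Zfp36 held 1 EGR match, 105 bases before the start, and 1 CArG match, 58 bases before it, motifs found in 3.47% and 1.63% of all 32851 promoters. Zfp36l1 held 1 AP-1 match 129 bases before its start, a motif found in 7.81% of promoters, and Zc3h12a held only the short form TGACG, found in 20.8%, just after its start. The 250 bases before the start are shown for both genes with a match there, Zfp36 at chr7:28379229-28379478 and Zfp36l1 at chr12:80113014-80113263, both on the minus strand, with the matches in capitals.
Zfp36: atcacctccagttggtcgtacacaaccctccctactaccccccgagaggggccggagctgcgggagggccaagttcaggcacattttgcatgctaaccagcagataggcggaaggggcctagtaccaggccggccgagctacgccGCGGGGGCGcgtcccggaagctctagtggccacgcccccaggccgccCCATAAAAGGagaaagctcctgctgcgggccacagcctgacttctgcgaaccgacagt
Zfp36l1: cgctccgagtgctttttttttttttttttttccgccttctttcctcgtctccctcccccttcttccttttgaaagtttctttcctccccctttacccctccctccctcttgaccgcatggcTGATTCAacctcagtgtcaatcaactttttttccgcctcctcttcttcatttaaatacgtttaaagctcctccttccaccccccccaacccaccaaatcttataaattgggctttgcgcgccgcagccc

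Several libraries stood apart or shared a tag. The 8 HSC markers examined were detected in all groups, with Fgd5 from 41.8 to 124 CPM (reads of a gene per TMM-adjusted library size) and Procr from 54.2 to 255 CPM. Of the 15 non-irradiated vehicle libraries, 14 form 7 pairs that share a tag in their column names, 1 of each pair with sheet numbers S79 to S85 and 1 with S42 to S70. Deviations from the mean of their own sheet numbers correlated at 0.41 to 0.72 within the 7 same-tag pairs and at -0.36 to 0.34 in the 49 other pairs (9923 genes), and each of the 7 matched its own tag best. The pairs nevertheless differed beyond counting noise (median chi-square per gene 6.31 to 12.6, where counting alone gives 0.455). The sets of sheet numbers also differ in level, as given below, so this cannot tell a library sequenced again from a separate library. Whether the paired libraries came from the same mouse was not tested. Xist and Y-linked genes gave 10 male and 5 female libraries in this group, against 8 and 7 in the labels, and fitted the labels in the other groups. Means for this group are therefore over 8 tags, and log2 fold changes of the members against it are also given with 1 sample per tag.

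The 2 sets of sheet numbers differed in level. In the 7 pairs, libraries S79 to S85 were below S42 to S70 in Zfp36l1 in 7 of 7 (log2 difference -0.35, SE 0.11, adjusted p = 0.040) and in Zfp36l2 in 7 of 7 (-0.15, SE 0.03, adjusted p = 0.0035). The difference was -0.04 (SE 0.05, adjusted p = 0.65) for Zfp36 and 0.11 (SE 0.28, adjusted p = 0.85) for Zc3h12a, and 2284 of 13178 genes passed (17.3%). All 1 h libraries have numbers in or near the lower set and all 24 h libraries numbers above the higher set, so log2 fold changes of the members against non-irradiated vehicle mice are also given within the nearer set. No 24 h library shares a tag with any 1 h or non-irradiated vehicle library. The nearer set therefore cannot account for differences between tags at 24 h. Libraries 5 and 12, a same-tag pair, had 409 and 423 CPM of Zfp36, while the 13 others lay between 33.7 and 79.2. The only other non-irradiated library of that tag, dmPGE2 library 2, had 509 CPM. Their mean log2 CPM over 12 immediate early genes was 5.16, 5.63 and 7.21, and their Fos reached 784, 729 and 1082 CPM. Levels and log2 fold changes of Zfp36 that use these libraries are also given without them, as values without the 3 libraries of 1 tag. They were picked for their high Zfp36, so such values show only how far a result depends on them. An adjusted p from such a fit is no further support. The irradiated libraries of the tag at 1 h, vehicle library 5 (475 CPM) and dmPGE2 library 1 (913 CPM), were kept.

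**Figure D1:**
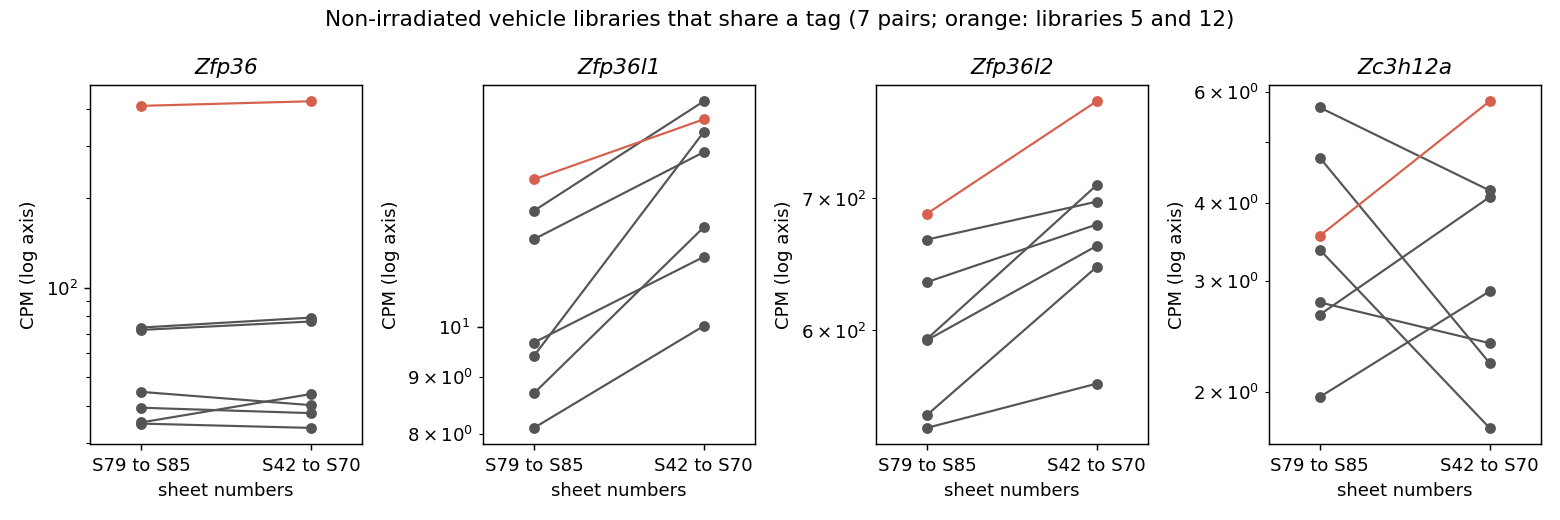
CPM (log axis) of each member in the 7 pairs of non-irradiated vehicle libraries that share a tag, with sheet numbers S79 to S85 on the left and S42 to S70 on the right of each panel, and lines joining the libraries of a pair. Zfp36l1 and Zfp36l2 are lower on the left in 7 of 7 pairs, and the orange pair, libraries 5 and 12, has 409 and 423 CPM of Zfp36, where no other library exceeds 79.2.

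Per kilobase of exon, the members fell into an abundant and a scarce pair in untreated HSC. Zfp36l2 averaged 183 ± 15.9 CPM per kb in non-irradiated vehicle mice (SD, n = 8 tags), above 97.2% of the genes tested. Zfp36 averaged 54.1 ± 74.0 CPM per kb, and 28.1 ± 10.1 without the tag of libraries 5 and 12 (n = 7 tags). Zfp36l1 followed at 4.02 ± 0.65 CPM per kb and Zc3h12a at 1.25 ± 0.35. In irradiated dmPGE2 mice at 1 h, Zfp36 averaged 421 ± 120 CPM per kb and Zfp36l2 324 ± 54.4 (SD, n = 8 libraries), with Zfp36 the higher in 7 of 8 libraries. In irradiated vehicle mice at 1 h they differed by less than their spreads, with 240 ± 78.5 CPM per kb for Zfp36 and 226 ± 32.1 for Zfp36l2, and Zfp36 was the higher in 5 of 8 libraries. Zfp36l1 stood at 7.20 ± 1.81 CPM per kb and Zc3h12a at 5.35 ± 2.17 in irradiated dmPGE2 mice at 1 h, with Zfp36l1 the higher in 6 of 8 libraries. In irradiated vehicle mice at 1 h Zfp36l1 reached 12.9 ± 1.97 CPM per kb, against 4.09 ± 1.33 for Zc3h12a. At 24 h the order was again Zfp36l2, Zfp36, Zfp36l1 and Zc3h12a in both irradiated groups. In these bulk samples, a change in the mix of sorted cells and a change of RNA per cell cannot be told apart.

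**Figure D2:**
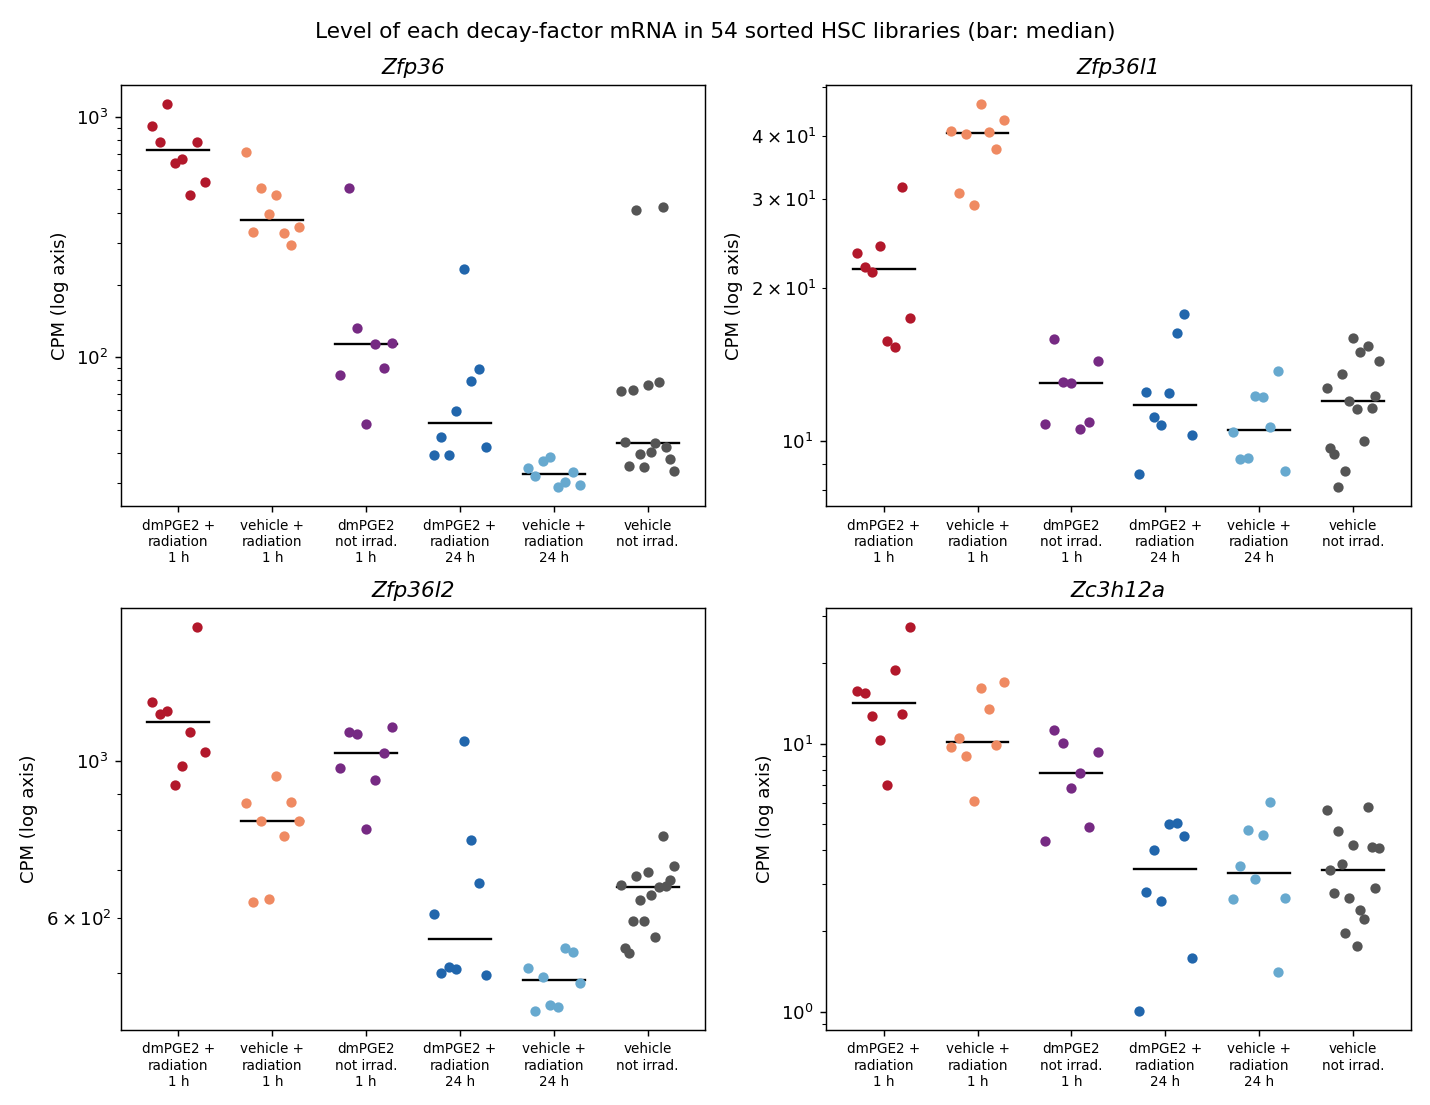
CPM (log axis) of the 4 members in each of the 54 libraries, 1 point per library and a bar at each group's median. Zfp36l1 is highest in irradiated vehicle mice at 1 h and lower in irradiated dmPGE2 mice, while Zfp36l2 is high in both dmPGE2 groups at 1 h.

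Radiation alone raised all 4 mRNAs within 1 h, the small rise of Zfp36l2 being the only call that depended on how the vehicle libraries were treated. Calls are at an adjusted p below 0.05 in edgeR's quasi-likelihood test with Benjamini-Hochberg adjustment over the 14320 genes, and 16% of these were called here, against 4 of 4 members. Comparisons with non-irradiated vehicle mice share those libraries. Ranges that do or do not overlap, here and below, describe the members alone, since the share of all genes without overlap was not counted.

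Zfp36l1 showed the clearest separation. It lay between 29.2 and 46.2 CPM in irradiated vehicle mice at 1 h (median 40.5), against 8.10 to 15.97 CPM in non-irradiated vehicle mice (median 11.99). No irradiated library reached down into the untreated range. The rise was 3.21-fold (95% interval 2.70 to 3.82, log2 fold change 1.68, SE 0.13, adjusted p = 2.15e-16), with 1.66 (adjusted p = 8.36e-13) for 1 sample per tag and 1.54 (adjusted p = 2.83e-12) within the nearer sheet numbers. Zc3h12a lay between 6.10 and 17.0 CPM in irradiated vehicle mice (median 10.2), against 1.75 to 5.80 CPM in non-irradiated vehicle mice (median 3.37). These groups did not overlap either. Its log2 fold change was 1.72 (SE 0.24, adjusted p = 1.45e-07), with 1.70 (adjusted p = 1.68e-05) for 1 sample per tag and 1.74 (adjusted p = 1.35e-05) within the nearer sheet numbers.

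Zfp36 lay between 294 and 714 CPM in irradiated vehicle mice (median 372), against 33.7 to 423 CPM in non-irradiated vehicle mice (median 43.8). All overlap came from vehicle libraries 5 and 12. The log2 fold change was 2.10 (SE 0.41, adjusted p = 1.0e-04), with 2.13 (adjusted p = 6.6e-04) for 1 sample per tag and 2.13 (adjusted p = 0.0024) within the nearer sheet numbers. Without the 3 libraries of 1 tag, picked for their high Zfp36, it was 3.07 (SE 0.24). Zfp36l2 lay between 631 and 952 CPM in irradiated vehicle mice (median 822), against 535 to 784 CPM in non-irradiated vehicle mice (median 662), with 5 of 8 libraries above the untreated range. Its log2 fold change of 0.31 (SE 0.10, adjusted p = 0.017) missed the threshold with 1 sample per tag (0.29, adjusted p = 0.098) and within the nearer sheet numbers (0.24, adjusted p = 0.21). Neutrophil markers, present in small amounts, summed to medians of 190 CPM in irradiated vehicle mice at 1 h (range 3.30 to 453) and 64.04 CPM in non-irradiated vehicle mice (21.3 to 351), with 0 of 7 at zero throughout. In the same order, B cell markers summed to 44.3 (39.7 to 51.4) and 64.6 CPM (55.4 to 76.9), without overlap. Medians were 638 and 732 CPM for monocyte, 54.9 and 74.6 for T and NK cell and 14.9 and 21.1 for erythroid markers. They were 3787 and 3870 for HSC and 74.4 and 82.6 for endothelial and stromal markers. The part of these markers in the results was not tested.

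dmPGE2 without radiation raised Zfp36l2 and Zc3h12a at 1 h, while Zfp36 and Zfp36l1 were not called, so 2 of 4 members passed where 11.1% of genes did. That fit leaves the tags out. With the tag as a replicate block Zfp36 was called too, as given below, with 1248 genes up and 1281 down of 13995. Zfp36l2 lay between 801 and 1117 CPM in non-irradiated dmPGE2 mice (median 1029), against 535 to 784 CPM in non-irradiated vehicle mice (median 662). All 7 treated libraries were above all 15 vehicle libraries. On the log2 scale the fold change was 0.65 (SE 0.10, adjusted p = 1.8e-06), with 0.63 (adjusted p = 1.6e-04) for 1 sample per tag and 0.58 (adjusted p = 2.4e-04) within the nearer sheet numbers. Zc3h12a lay between 4.35 and 11.3 CPM in non-irradiated dmPGE2 mice (median 7.74), against 1.75 to 5.80 CPM in non-irradiated vehicle mice (median 3.37). Of the 7 treated libraries, 5 were above the vehicle range. Its log2 fold change was 1.16 (SE 0.25, adjusted p = 6.8e-04), with 1.14 (adjusted p = 0.0066) for 1 sample per tag and 1.18 (adjusted p = 0.0058) within the nearer sheet numbers. Neutrophil markers summed to medians of 192 CPM in non-irradiated dmPGE2 mice (range 16.4 to 434) and 64.04 CPM in non-irradiated vehicle mice (21.3 to 351), and their part in these results was not tested.

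Zfp36l1 lay between 10.6 and 15.9 CPM in non-irradiated dmPGE2 mice (median 13.04), inside the vehicle range of 8.10 to 15.97 CPM. The log2 fold change was 0.07 (SE 0.14, adjusted p = 0.84), with a 95% interval from -0.20 to 0.35, and it was 0.06 with 1 sample per tag and -0.07 within the nearer sheet numbers, neither called. Zfp36 lay between 52.96 and 509 CPM in non-irradiated dmPGE2 mice (median 114), against 33.7 to 423 CPM in non-irradiated vehicle mice (median 43.8). In both groups the high value belonged to the same tag, with 132 CPM the next highest of the treated libraries. On the log2 scale the fold change was 0.66 (SE 0.43, adjusted p = 0.40), with 0.70 (adjusted p = 0.47) for 1 sample per tag and 0.69 (adjusted p = 0.57) within the nearer sheet numbers. It was 0.97 (SE 0.25, adjusted p = 0.0071) without the 3 libraries of 1 tag, a choice made on Zfp36 itself. With the tag as a replicate block it was 0.93 (SE 0.27, adjusted p = 0.015). Tags pair these 2 groups, since same-tag deviations correlated at 0.23 to 0.56 in 7 of 7 pairs.

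When radiation followed dmPGE2, the relatives parted: Zfp36l1 was lower, and Zfp36l2 higher, in irradiated dmPGE2 mice than in irradiated vehicle mice at 1 h. These 2 of 4 members were called where 14.8% of genes were. With the tag as a replicate block Zfp36 was called too, as given below, with 1665 genes up and 1756 down of 13995. Zfp36l1 lay between 15.3 and 31.8 CPM in irradiated dmPGE2 mice (median 21.8), against 29.2 to 46.2 CPM in irradiated vehicle mice (median 40.5). Of the 8 dmPGE2 libraries 7 were below the whole vehicle range, and library 7, at 31.8 CPM, was inside it. The fold was 0.56 (95% interval 0.45 to 0.68), or -0.85 on the log2 scale (SE 0.15, adjusted p = 2.2e-05).

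Zfp36l2 lay between 924 and 1549 CPM in irradiated dmPGE2 mice (median 1135), against 631 to 952 CPM in irradiated vehicle mice (median 822). Of the 8 dmPGE2 libraries, 7 were above the vehicle range. The log2 fold change was 0.52 (SE 0.11, adjusted p = 4.9e-04), and 0.45 (SE 0.11, adjusted p = 0.0030) without library 7, which held the 1549 CPM. Zfp36 lay between 475 and 1132 CPM in irradiated dmPGE2 mice (median 727), against 294 to 714 CPM in irradiated vehicle mice (median 372). Of the 8 dmPGE2 libraries, 4 were above the vehicle range, and the log2 fold change of 0.81 (SE 0.48, adjusted p = 0.30) was not called. It was called with the tag as a replicate block (0.82, SE 0.30, adjusted p = 0.042) and in a fit of these 2 groups alone (0.81, SE 0.19, adjusted p = 0.0056). Zc3h12a lay between 6.99 and 27.2 CPM in irradiated dmPGE2 mice (median 14.2), against 6.10 to 17.0 CPM in irradiated vehicle mice (median 10.2). These ranges overlapped, and its log2 fold change was 0.39 (SE 0.28, adjusted p = 0.42, 95% interval -0.18 to 0.95). With the tag as a block 3421 genes were called over the whole table, against 2121 without it.

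A difference in the response to dmPGE2 between irradiated and non-irradiated mice was called for 1 of the 4 members, Zfp36l1. The interaction was -0.92 on the log2 scale (SE 0.20, adjusted p = 0.0021), as against 2.97% of genes called, and it was -0.90 (adjusted p = 0.0051) with 1 sample per tag and -0.78 (adjusted p = 0.025) within the nearer sheet numbers. For the others it was not called: -0.13 (95% interval -0.43 to 0.17) for Zfp36l2, 0.15 (-1.16 to 1.45; -0.15 without the 3 libraries of 1 tag) for Zfp36 and -0.78 (-1.54 to -0.01, adjusted p = 0.37) for Zc3h12a.

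**Figure D3:**
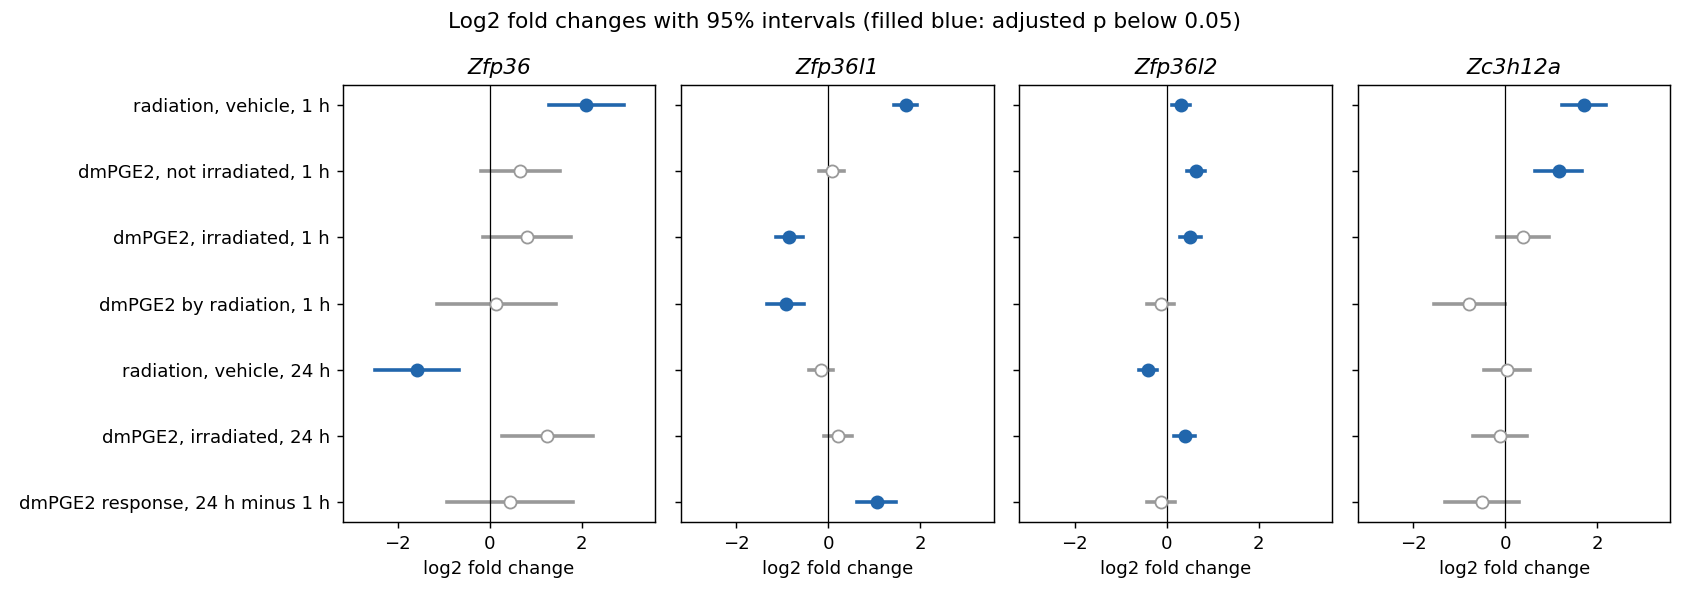
Log2 fold change (point) and 95% interval (line) of each member in 7 contrasts, treated over control, with filled blue marks where the adjusted p is below 0.05. Zfp36l1 rises with radiation (1.68) and is lower with dmPGE2 in irradiated mice (-0.85), whereas Zfp36l2 rises with dmPGE2 in both settings at 1 h (0.65 and 0.52).

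With both treatments, all 4 members stood above untreated HSC at 1 h (4 of 4 called, against 18.3% of genes). The log2 fold changes of irradiated dmPGE2 mice over non-irradiated vehicle mice were 2.91 (SE 0.41) for Zfp36, 0.84 (SE 0.13) for Zfp36l1, 0.83 (SE 0.09) for Zfp36l2 and 2.11 (SE 0.24) for Zc3h12a, with adjusted p from 5.8e-10 to 8.2e-07. With 1 sample per tag they were 2.94, 0.82, 0.81 and 2.09, and within the nearer sheet numbers 2.93, 0.69, 0.76 and 2.13, all called. Without the 3 libraries of 1 tag the value for Zfp36 was 3.89 (SE 0.24). Only Zfp36l1 overlapped the untreated range, with 6 of 8 libraries above it. Among mice given dmPGE2, few genes were called for radiation at 1 h (0.377%), and Zfp36 and Zfp36l1 were among them. Zfp36 rose by 2.24 (SE 0.52, adjusted p = 0.024, and 2.92 without the 3 libraries of 1 tag), and Zfp36l1 rose by 0.76 (SE 0.16, adjusted p = 0.0037). Zfp36l2 was at 0.18 (95% interval -0.05 to 0.41, adjusted p = 1.0). Zc3h12a was at 0.94 (SE 0.30, adjusted p = 0.31), and with the tag as a block it was called (1.00, SE 0.20, adjusted p = 0.0052), while 95 genes were called over the whole table with the block and 54 without it. Tags pair these groups too (same-tag correlations 0.12 to 0.50 in 7 of 7 pairs).

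At 24 h no member was called higher in irradiated vehicle mice than in non-irradiated vehicle mice, and Zfp36 and Zfp36l2 were lower. At this time 49.7% of genes were called, so 2 of 4 members is no more than the table as a whole. Zfp36 lay between 28.7 and 38.3 CPM in irradiated vehicle mice at 24 h (median 32.6), against 33.7 to 423 CPM in non-irradiated vehicle mice (median 43.8), with 5 of 8 libraries below the untreated range. On the log2 scale the fold change was -1.59 (SE 0.45, adjusted p = 0.0032), with -1.54 for 1 sample per tag and -1.62 within the nearer sheet numbers, and it shrank to -0.62 (SE 0.24, adjusted p = 0.031) without the 3 libraries of 1 tag. Zfp36l2 lay between 443 and 543 CPM in irradiated vehicle mice at 24 h (median 489), against 535 to 784 CPM in non-irradiated vehicle mice (median 662). Its ranges barely met, with 6 of 8 libraries below all untreated ones. The log2 fold change was -0.40 (SE 0.10, adjusted p = 6.3e-04), and -0.41 (adjusted p = 0.0031) for 1 sample per tag and -0.32 (adjusted p = 0.023) within the nearer sheet numbers. The marker sums of several cell types moved at this time too. HSC markers summed to medians of 2552 CPM in irradiated vehicle mice at 24 h (range 2114 to 3008) and 3870 CPM in non-irradiated vehicle mice (3106 to 4785). Neutrophil markers summed to 12.9 CPM in irradiated vehicle mice (8.60 to 190) and 64.04 CPM in non-irradiated vehicle mice (21.3 to 351). Erythroid markers, 3 of 6 of them at zero throughout, summed to 3.17 CPM in irradiated vehicle mice (2.06 to 6.44) and 21.1 CPM in non-irradiated vehicle mice (10.2 to 44.96). T and NK cell markers summed to 124 CPM in irradiated vehicle mice (101.3 to 201.4) and 74.6 CPM in non-irradiated vehicle mice (41.0 to 130). The part of these in the lower members was not tested.

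Zfp36l1 at 24 h lay between 8.72 and 13.7 CPM in irradiated vehicle mice, inside the range of 8.10 to 15.97 CPM of non-irradiated vehicle mice. Its log2 fold change was -0.16 (95% interval -0.42 to 0.11, adjusted p = 0.34), with -0.16 for 1 sample per tag and 0.03 within the nearer sheet numbers. Zc3h12a lay between 1.41 and 6.04 CPM in irradiated vehicle mice, against 1.75 to 5.80 CPM in non-irradiated vehicle mice, a log2 fold change of 0.05 (95% interval -0.46 to 0.55, adjusted p = 0.90), with 0.04 for 1 sample per tag and 0.03 within the nearer sheet numbers. In irradiated dmPGE2 mice at 24 h, 0 of 4 members were called against non-irradiated vehicle mice, where 36.4% of genes were. edgeR gave adjusted p from 0.57 to 0.97 and 0 of 4 at an unadjusted p below 0.05, and DESeq2 also called 0 of 4. The log2 fold changes were -0.34 (SE 0.43) for Zfp36, 0.05 (SE 0.13) for Zfp36l1, -0.01 (SE 0.10) for Zfp36l2 and -0.07 (SE 0.26) for Zc3h12a. In that order they were -0.29, 0.04, -0.02 and -0.08 with 1 sample per tag and -0.37, 0.24, 0.08 and -0.09 within the nearer sheet numbers, none called. Without libraries 3, 5, 6 and 7 of the dmPGE2 mice Zfp36 was at -1.08 (adjusted p = 0.14), Zc3h12a at -0.80 (SE 0.33, adjusted p = 0.056), and Zfp36l2 was called lower (-0.29, adjusted p = 0.022). Libraries 5, 6 and 7 have the most of these 3 mRNAs in their group, so such values show only how far the results depend on them. Without the 3 libraries of 1 tag the value for Zfp36 turned to 0.64 (SE 0.23, adjusted p = 0.029).

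Directly between times, all 4 members were lower at 24 h than at 1 h in irradiated vehicle mice (4 of 4 called, against 50.9% of genes). The log2 fold changes were -3.69 (SE 0.53) for Zfp36, -1.84 (SE 0.15) for Zfp36l1, -0.71 (SE 0.11) for Zfp36l2 and -1.67 (SE 0.29) for Zc3h12a. No 24 h library overlapped the 1 h range in any of the 4, and how many of all genes separate in this way was not counted. In irradiated dmPGE2 mice the log2 fold changes were -3.24 (SE 0.52), -0.78 (SE 0.15), -0.83 (SE 0.11) and -2.17 (SE 0.30), also 4 of 4 called, against 36.3% of genes. Time, sheet number and tag run together here, and taking the nearer sheet numbers does not separate time from tag. With each time taken relative to the vehicle libraries of the nearer sheet numbers the values in irradiated vehicle mice were -3.74, -1.51, -0.56 and -1.71, all called. In irradiated dmPGE2 mice they were -3.30, -0.46, -0.68 and -2.21, and that of Zfp36l1 was no longer called (adjusted p = 0.14).

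At 24 h dmPGE2 left Zfp36l2 higher in irradiated mice, and this rested on a few libraries. With 1 of 4 members called where 23.9% of genes were, the members' share is that of the table. Zfp36l2 lay between 497 and 1070 CPM in irradiated dmPGE2 mice (median 559), against 443 to 543 CPM in irradiated vehicle mice (median 489). The 4 libraries above the vehicle range were 608 CPM in library 1 and 1070, 773 and 671 CPM in male libraries 5, 6 and 7. On the log2 scale the fold change was 0.39 (SE 0.11, adjusted p = 0.0067), but 0.25 (SE 0.10, adjusted p = 0.059) without library 5 and 0.12 (SE 0.11, adjusted p = 0.58) with libraries 3, 5, 6 and 7 left out together. In a fit of these 2 groups alone it was 0.40 (SE 0.14, adjusted p = 0.061).

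Zfp36 at 24 h was 39.2, 46.4, 39.2 and 59.5 CPM in the 4 female and 232, 79.3, 89.4 and 42.2 CPM in the 4 male irradiated dmPGE2 mice. In irradiated vehicle mice it was 34.7, 31.9, 37.0 and 38.3 CPM in females and 28.7, 30.4, 33.2 and 29.5 CPM in males. All 8 dmPGE2 libraries were above all 8 vehicle libraries, and male libraries 5, 6 and 7 were the highest. The log2 fold change of 1.25 (SE 0.49, adjusted p = 0.057) was just outside the threshold, in a fit whose spread for this gene includes the non-irradiated libraries of 1 tag. It was called with 1 sample per tag (1.24, adjusted p = 0.036), with DESeq2 (1.26, adjusted p = 0.033), in these 2 groups alone (1.26, SE 0.31, adjusted p = 0.014) and in males alone (1.87, SE 0.34, adjusted p = 0.0021). Females alone gave 0.39 (adjusted p = 0.76), and the difference between the sexes, 1.47 (SE 0.47), was not called (adjusted p = 0.29). Without library 5 the log2 fold change was 0.78 (SE 0.48, adjusted p = 0.27). That library also had the most Fos of its group, 153 CPM against 7.98 to 35.3 in the other 7. Neutrophil markers summed to medians of 129 CPM in irradiated dmPGE2 mice (range 7.92 to 613) and 12.9 CPM in irradiated vehicle mice (8.60 to 190). In the same order, HSC markers summed to medians of 3223 and 2552 CPM, T and NK cell markers to 83.4 and 124, and erythroid markers to 7.79 and 3.17. Endothelial and stromal markers reached 262 CPM in irradiated dmPGE2 mice and 74.0 in irradiated vehicle mice. The part of these markers in the result was not tested.

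Zfp36l1 was not called between irradiated dmPGE2 and vehicle mice at 24 h, with 8.62 to 17.8 CPM (median 11.8) against 8.72 to 13.7 CPM (median 10.5) and a log2 fold change of 0.21 (95% interval -0.09 to 0.51). Zc3h12a lay between 1.01 and 5.08 CPM in irradiated dmPGE2 mice (median 3.41), against 1.41 to 6.04 CPM in irradiated vehicle mice (median 3.31), a log2 fold change of -0.11 (95% interval -0.69 to 0.47), and -0.84 (SE 0.35, adjusted p = 0.16) without libraries 3, 5, 6 and 7. The change in the dmPGE2 response between times was called for 1 of the 4 members, Zfp36l1 (1.06, SE 0.21, adjusted p = 1.7e-04), and 1 of 4 is the share of the table, where 25.4% of genes were called. The same difference was -0.12 (SE 0.16) for Zfp36l2, 0.44 (SE 0.68) for Zfp36 and -0.50 (SE 0.41) for Zc3h12a. Without libraries 3, 5, 6 and 7 it was called for Zfp36l2 (-0.40, adjusted p = 0.038) and Zc3h12a (-1.23, adjusted p = 0.048). Libraries 5, 6 and 7 have the most Zfp36l2 and Zc3h12a of their group, so these calls show only how far the difference depends on them.

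The genes most like each member across the 54 libraries are given as a description with no test, since the libraries share groups that differ strongly. For Zfp36 they were Junb (Pearson r of log2 CPM 0.96), Ier2 (0.92), Ier3 (0.90), Csrnp1 (0.90) and Ppp1r15a (0.87). For Zfp36l1 they were Jund (0.92), Nfkbia (0.92), Rhob (0.90), Marcksl1 (0.90) and Tnfaip3 (0.89), where Nfkbia and Tnfaip3 encode inhibitors of NF-kB. For Zfp36l2 they were Tob2 (0.92), a partner of CCR4-NOT, then Klf13 (0.92), Dusp1 (0.91), Anks1 (0.90) and Sik1 (0.90). For Zc3h12a they were Junb (0.84), Pim3 (0.83), Ppp1r15a (0.83), Ccrl2 (0.82) and Vegfa (0.82). Among the members r ran from 0.50, between Zfp36l1 and Zfp36l2, to 0.80, between Zfp36 and Zc3h12a.

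Known targets of the ZFP36 family, short-lived mRNAs with AU-rich tails, included many that rose at 1 h. The 12 immediate early genes, a list that also holds the targets Fos and Dusp1, moved likewise. They are known for rising fast, so they cannot tell whether the rise was particular to the targets. After radiation with vehicle 7 of these 12 rose and 0 fell (median 1.26, with 16% of all genes called). With dmPGE2 alone 8 rose and 0 fell (1.81, with 11.1%), and with dmPGE2 in irradiated mice 7 rose and 1 fell (1.98, with 14.8%). After radiation with vehicle at 1 h, 10 of the 16 targets tested rose and 1 (Ccl3) fell, where 16% of all genes were called. With 1 sample per tag it was 10 up and 0 down, against 831 up and 712 down of 14196 genes. Over all libraries the median log2 fold change of the targets was 1.27, against -0.0027 over all genes. The neutrophil chemokine gene Cxcl2 had 29.8 ± 12.97 CPM in irradiated vehicle mice (SD, n = 8) against 0.28 ± 0.39 in non-irradiated vehicle mice (n = 8 tags), a rise of 6.69 on the log2 scale (SE 0.56, adjusted p = 3.8e-13). Ptgs2, which encodes cyclooxygenase 2, rose by 3.83 (SE 0.70; 4.87 without the 3 libraries of 1 tag), the stress kinase gene Plk3 by 2.45 (SE 0.22) and the vascular growth factor gene Vegfa by 2.25 (SE 0.19). Ccl3 was named after its value was seen. The median sum of neutrophil markers, given above, was also higher in these mice, and its part in these counts was not tested.

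With dmPGE2 alone 8 of the 16 rose and 1 (Myc) fell, where 11.1% of all genes were called. With 1 sample per tag it was 8 up and 0 down, against 486 up and 642 down of 14196 genes. Over all libraries the median of the targets was 1.53, against 0.0049 over all genes. Il10, which encodes the anti-inflammatory interleukin 10, rose by 4.78 (SE 0.74), Cxcl2 by 3.73 (SE 0.57), Ptgs2 by 3.30 (SE 0.72; 3.96 without the 3 libraries of 1 tag) and Vegfa by 3.03 (SE 0.19). In irradiated mice at 1 h, dmPGE2 over vehicle raised 4 of the 16 and lowered 1, where 14.8% of all genes were called (median 1.41, against 0.0096 over all genes). With the tag as a block 11 were called, against 1665 up and 1756 down of 13995 genes. Il10 had 30.6 ± 11.3 CPM in irradiated dmPGE2 mice and 0.11 ± 0.09 in irradiated vehicle mice (SD, n = 8 each; log2 fold change 8.07, SE 1.02). Fos, an AP-1 factor, rose by 4.37 (SE 1.07), Dusp1, a phosphatase that switches p38 kinase off, by 2.89 (SE 0.45) and Vegfa by 1.82 (SE 0.22), while the receptor gene Notch1 fell by 0.80 (SE 0.21). At 24 h, 6 of the 16 were higher and 1 lower in irradiated dmPGE2 than in irradiated vehicle mice (median 0.78, against 0.028), where 23.9% of all genes were called. But 2 were called without library 5 and 0 without libraries 3, 5, 6 and 7. The share of all genes called in those fits was not counted.

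Of 18 AU-rich targets listed, 10 hold the nonamer TTATTTATT in their longest 3′ UTR, against 7.66% of 21020 genes of any UTR length. The list was made of mRNAs known for AU-rich tails, so a higher share follows from how it was chosen and tests nothing. The first site of the 4 targets named for the rise after radiation is shown with the nonamer in capitals and 10 bases on each side: Cxcl2 at chr5:90905316-90905344 (plus strand), Ptgs2 at chr1:150105790-150105818 (plus), Plk3 at chr4:117128718-117128746 (minus) and Vegfa at chr17:46017166-46017194 (minus), in GRCm38.
Cxcl2: gagagttcacTTATTTATTtatctatgta
Ptgs2: ctgaccatatTTATTTATTtatgtgaaga
Plk3: tggaccacttTTATTTATTaacagacatt
Vegfa: ttgttatcatTTATTTATTggtgctactg

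**Figure D4:**
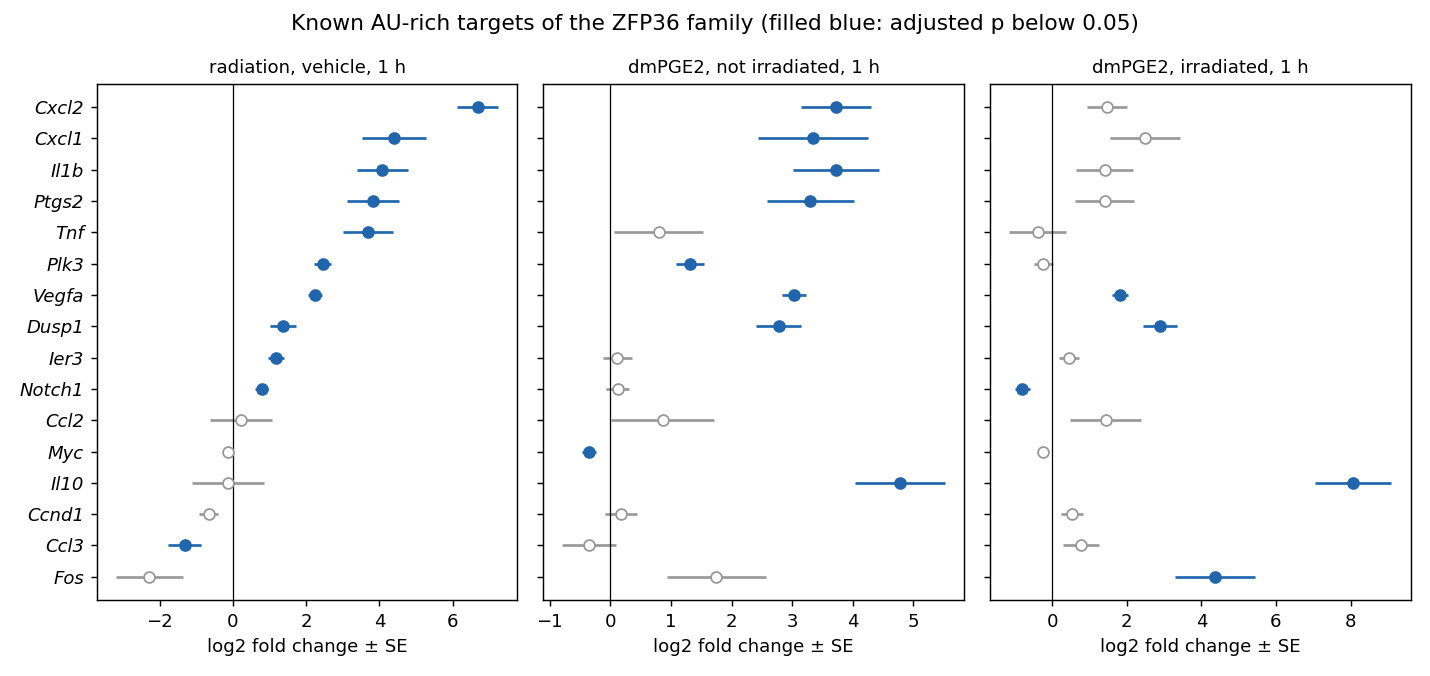
Log2 fold change ± SE of the 16 tested AU-rich targets in 3 comparisons at 1 h, with filled blue marks where the adjusted p is below 0.05. With radiation 10 rise and 1 falls, with dmPGE2 alone 8 rise and 1 falls, and with dmPGE2 in irradiated mice 4 rise and 1 falls.

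Targets of regnase-1 moved both ways. After radiation with vehicle, 3 of 8 tested rose and 2 fell, where 16% of all genes were called (median 0.28), with the NF-kB subunit gene Rel at 3.04 (SE 0.26), the shared target Ptgs2 at 3.83 and Nfkbiz, a nuclear regulator of NF-kB, at 0.91 (SE 0.31). The stem cell factor genes Tal1 (-0.76, SE 0.10) and Gata2 (-0.35, SE 0.10) fell. With 1 sample per tag the counts were 2 and 2, against 831 up and 712 down of 14196 genes. With dmPGE2 over vehicle in irradiated mice, a comparison that shares the 8 irradiated vehicle libraries with the one before, 3 of 8 rose and 1 fell, where 14.8% of all genes were called (median 0.89). Rel fell by 1.75 (SE 0.31), and Nfkbiz (1.29, SE 0.36), Gata2 (0.80, SE 0.11) and Tal1 (0.60, SE 0.11) rose. Rel had 12.5 ± 2.67 CPM in irradiated dmPGE2 mice and 42.3 ± 8.46 in irradiated vehicle mice (SD, n = 8 each), and its interaction of dmPGE2 with radiation was called (-2.67, SE 0.42, adjusted p = 7.7e-06), like that of Zfp36l1. dmPGE2 without radiation raised 3 of 8, namely Ptgs2, Rel (0.92, SE 0.28) and Gata2 (0.49, SE 0.10), and lowered 0, where 11.1% of all genes were called. With 1 sample per tag it raised 2 and lowered 0, against 486 up and 642 down of 14196 genes.

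Genes that carry out decay were counted against the same shares of the table. Of 21 deadenylation, decapping and exonuclease genes, 2 rose and 0 fell after radiation with vehicle at 1 h (16% of all genes called): the exonuclease gene Xrn1 (0.58, SE 0.18) and the deadenylase gene Cnot7 (0.26, SE 0.07). Their list median was 0.05. With 1 sample per tag 1 was called, against 831 up and 712 down of 14196 genes. Within the nearer sheet numbers 0 were called, a fit in which calls over all genes were not counted. dmPGE2 in irradiated mice raised 2 and lowered 3 (14.8% of all genes called), with the decapping enhancer genes Edc3 (-0.47, SE 0.09) and Edc4 (-0.33, SE 0.09) and the deadenylase gene Cnot6 (-0.40, SE 0.10) lower. dmPGE2 alone raised 2 and lowered 1 (11.1% of all genes called), again Edc3 (-0.36, SE 0.08).

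Among 15 other RNA-binding regulators, 4 rose after radiation with vehicle at 1 h, where 16% of all genes were called. With 1 sample per tag 2 did, against 831 up and 712 down of 14196 genes. Within the nearer sheet numbers 1 did, and calls over all genes were not counted there. The 4 were Arid5a (0.83, SE 0.24), whose protein opposes regnase-1, Zc3h12c (0.68, SE 0.17), which encodes regnase-3, Rc3h2 (0.59, SE 0.13), which encodes roquin-2, and Celf1 (0.24, SE 0.07). dmPGE2 in irradiated mice lowered 4 and raised 0, where 14.8% of all genes were called: the roquin genes Rc3h1 (-0.90, SE 0.18) and Rc3h2 (-0.65, SE 0.15), Zc3h12c (-0.70, SE 0.20) and N4bp1 (-0.45, SE 0.12). At 24 h Arid5a was higher in irradiated dmPGE2 than in irradiated vehicle mice (2.37, SE 0.29), with 114 ± 120 CPM against 22.1 ± 6.73 (SD, n = 8 each). Library 5 alone had 401 CPM, and without it the dmPGE2 mean was 73.3 ± 33.8 CPM (n = 7) and the log2 fold change of Arid5a 1.73 (adjusted p = 3.8e-08), while without libraries 3, 5, 6 and 7 it was 1.28 (adjusted p = 7.4e-05). Of 11 genes that control the members' proteins, 4 rose after radiation with vehicle at 1 h, again against 16%. They were Dusp1 (1.36, SE 0.36), the p38 activator Map2k3 (0.70, SE 0.08), the TTP kinase Mapkapk2 (0.34, SE 0.06) and the phosphatase subunit Ppp2ca (0.26, SE 0.06). At 24 h in irradiated vehicle mice against non-irradiated vehicle mice, where 49.7% of all genes were called, 4 of 16 AU-rich targets were higher and 7 lower (median -0.19, against -0.06 over all genes), and 0 of 8 regnase-1 targets were higher and 4 lower (median -0.48). The counts up and down were 3 and 9 of 21 decay genes, 5 and 6 of 15 other RNA-binding regulators, and 3 and 5 of 11 genes of control. mRNA levels alone were measured, so neither the proteins of the members nor their activity is known here.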

How the data were processed

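Libraries of sorted HSC were prepared with the SMART-Seq v4 and Nextera XT kits, per the labels' protocols. These kits keep neither the strand nor a label on single molecules, so every value counts reads. The submitters' processing notes name STAR 2.5.2b, mm10 and featureCounts of Subread 1.5.1. The authors deposited 1 table of raw read counts per gene, unscaled as its values show and named by sample per the file headers. The gene annotation and the treatment of multi-mapping reads were not given in the sources used here.

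Columns were given to groups by their names and the number of samples the labels give each group. The design text counts mice per group, so libraries were taken as separate mice except for tags shared within the non-irradiated vehicle group. At 24 h each tag names a female and a male library in each group, and these were taken as separate mice. edgeR 4.0.16 in R 4.3.3 was run on the 54 libraries and 6 groups: filterByExpr (minimum count 10), TMM scaling and a robust quasi-likelihood fit (48 residual degrees of freedom, common dispersion 0.121). Each SE was derived from the fold change and its F statistic. CPM use TMM factors, levels and sums of cell markers total counts alone, and log2 CPM a prior count of 3. DESeq2 1.42.0 was an alternative. The fits were tested on simulated data.

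Named genes were the 4 members, up to 4 called genes per list with the largest change (average log2 CPM 2 or more), and the 5 genes most correlated with each member (average log2 CPM 3 or more). Members and lists were chosen with earlier results of these data known.

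Tags in column names were checked as pairs by the correlation of same-tag deviations from group means. It was over 0.1 in every pair between irradiated dmPGE2 and irradiated vehicle mice at 1 h (0.16 to 0.66, 8 pairs), irradiated and non-irradiated dmPGE2 mice, and non-irradiated dmPGE2 and vehicle mice. It was not in every pair against non-irradiated vehicle mice for the irradiated groups (7 of 8 pairs each) nor at 24 h (4 of 8). At 24 h a pair shared both tag and sex, whereas the block there used the tag alone, with both sexes together.

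The alternatives were other size factors (RLE), no filter on low counts, DESeq2, only the groups compared, each sex alone at 24 h, the tag as a block, and irradiated dmPGE2 libraries 3, 5, 6 and 7 at 24 h left out. No rule for choosing those libraries is given here, and 5, 6 and 7 have the most Zfp36, Zfp36l2 and Zc3h12a of their group. Values without them show only how far a result depends on them, and an adjusted p from such a fit is no further support. Chosen after seeing the data were 1 sample per tag (47 libraries, 14196 genes), the nearer sheet numbers, the libraries of 1 tag or single libraries left out, the counts of each list under these, and the search for the nonamer. Intervals cover 95%. No protein sequences were used here.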

Additional observations from a re-analysis of the deposited data

Results flagged for a closer look

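In 4 of 24 sets of values (4 members in 6 groups, non-irradiated vehicle mice by 8 tags), 1 value lay far from the rest by Dixon's gap test, which chance alone gives in about 1 set in 20. For Zfp36 these were 508.7 CPM in non-irradiated dmPGE2 library 2, 231.9 CPM in irradiated dmPGE2 library 5 at 24 h, and the mean of 416 CPM of non-irradiated vehicle libraries 5 and 12. The first and the last share a tag. The fourth was Zfp36l2 at 1549 CPM in irradiated dmPGE2 library 7 at 1 h.

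Zfp36l1 was singled out because its response to dmPGE2 differed by the test of the difference itself: between irradiated and non-irradiated mice at 1 h (-0.92 on the log2 scale) and between 24 h and 1 h in irradiated mice (1.06). The second is 1 of 4 members called, the share of the table as a whole (25.4% of genes). It also runs together with sheet number and tag, although both groups of each time share theirs.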

How the results depend on the processing

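Of the 392 values of the 4 members under the alternatives, 356 kept their direction and their side of the threshold, and 29 of 48 combinations of member and comparison did so throughout. The cause was not tested where they did not.

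Against non-irradiated vehicle mice, the rise of Zfp36l2 in irradiated vehicle mice at 1 h lost its call with 1 sample per tag (0.29) and within the nearer sheet numbers (0.24). Within the nearer sheet numbers Zfp36l1 turned to 0.027 in irradiated vehicle mice at 24 h and to -0.068 in non-irradiated dmPGE2 mice, and Zfp36l1 between 24 h and 1 h with dmPGE2 (-0.46) lost its call. Zfp36 in non-irradiated dmPGE2 mice gained one with the block (0.93) and without the libraries of 1 tag (0.97). In irradiated dmPGE2 mice at 24 h, leaving out those libraries turned Zfp36 to 0.64, Zfp36l2 to 0.022 and Zc3h12a to 0.0064. There Zfp36l2 also turned with RLE factors (0.0078), DESeq2 (0.0078) and the nearer sheet numbers (0.079). Without libraries 3, 5, 6 and 7 it was called lower (-0.29), and Zfp36l1 turned to -0.20.

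For dmPGE2 over vehicle in irradiated mice, Zfp36 at 1 h gained a call in the 2 groups alone (0.81) and with the block (0.82). At 24 h it gained one with DESeq2 (1.26), the 2 groups alone (1.26), males alone (1.87), the block (1.14) and 1 sample per tag (1.24). Zfp36l2 at 24 h lost its call in the 2 groups alone (0.40), females alone (0.18), with the block (0.38), without libraries 3, 5, 6 and 7 (0.12) and without library 5 (0.25). Zfp36l1 turned to -0.025 without libraries 3, 5, 6 and 7, and Zc3h12a to 0.14 in males. Zc3h12a between irradiated and non-irradiated dmPGE2 mice gained a call with the block (1.00).

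The block moved the rise of Zfp36 at 1 h over non-irradiated vehicle mice to 3.604 with both treatments and 2.78 with radiation alone, and same-tag correlations there were over 0.1 in 7 of 8 pairs.

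The interaction of Zfp36 turned to -0.11 with the block and -0.15 without the libraries of 1 tag. The difference between times turned to -0.30 for Zfp36 without libraries 3, 5, 6 and 7 and to -0.039 without library 5. Without those 4 it was called for Zfp36l2 (-0.40) and Zc3h12a (-1.23).

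With the tag as a replicate block, genes called over the table numbered 3547 for irradiated vehicle mice over non-irradiated vehicle mice at 1 h (2285 without it), 2529 for dmPGE2 alone (1589), 3421 for dmPGE2 in irradiated mice at 1 h (2121) and 1245 at 24 h (3421). For irradiated over non-irradiated dmPGE2 mice they were 95 (54) and for the interaction 942 (426). The block changed no other call of a member. Zc3h12a had as few as 21 reads in a library, which limits the precision of its values.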
